A study of Mus musculus with 6 samples.

Results

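Positive selection is the step at which a CD4+CD8+ double-positive thymocyte whose T cell receptor binds self peptide on MHC molecules receives a signal to survive and mature. The signal runs through the kinases Lck and Zap70 to calcium and ERK, which switch on transcription factors of the EGR family within a short time and then surface proteins such as CD69 and CD5. Most double-positive thymocytes have not yet been selected, and these transcripts are used as marks of the cells that have been signalled. The genes described here are 10 markers and regulators of that step, chosen by name: Cd69, Cd5, Cd6, Itm2a, Egr2, Egr3, Nab2, Socs1, Themis and Bcl6. Of these, 9 had a probe on the array, with 15 probes in all among the 45281 probes measured. The probe annotation used here held 0 probes for Cd5, an inhibitor of receptor signalling whose gene neighbours Cd6, and Cd5 was not analysed here.

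RNA came from CD4+CD8+ thymocytes sorted from the thymus of Flvcr-/- and Flvcr+/+ mice on a C57BL/6 background, with 3 samples of each genotype and 1 Illumina bead array per sample. Flvcr1 encodes a heme exporter, and the comparison asks how double-positive thymocytes differ when it is deleted. The sources used here give neither how the deletion was made nor the age of the mice nor whether each sample was a separate mouse. The p-values therefore describe the spread between these samples, which may be technical. Values are log2 intensities after background correction and quantile normalization, on which dim probes show smaller differences than the RNA itself, and in sorted bulk cells fewer signalled cells and less RNA per cell cannot be told apart.

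Between 15307 and 15792 probes were detected per array, and 15448 probes standing for 8808 genes entered the test. Flvcr1 read 9.92, 10.45 and 10.13 in Flvcr-/- cells, against 11.01, 11.28 and 10.93 in Flvcr+/+ cells (limma adjusted p = 0.0317), and whether its probe lies in the deleted part is not given. Its log2 fold change was -0.91, or -1.05 to -0.79 with 1 array left out, and it no longer passed without Flvcr-/- replicate 1 or 3, without Flvcr+/+ replicate 1 or 2 (limma adjusted p = 0.115 to 0.296) or without the variance trend (0.38). Of 9 double-positive markers 7 were detected, with Cd8b1 at 14.83 ± 0.16 in Flvcr-/- and 14.88 ± 0.02 in Flvcr+/+ cells (SD, n = 3 each), whereas the probes of Cd8a were below the detection limit on too many arrays to enter. Xist was at background on Flvcr-/- replicate 1 and Flvcr+/+ replicate 3 (4.72 on each) and between 9.49 and 9.99 on the other 4 arrays. Hemoglobin genes varied widely, with a list mean of 7.82, 12.11 and 12.44 on Flvcr-/- arrays against 12.02, 10.14 and 10.33 on Flvcr+/+ arrays. Over the 8808 genes, 2 (0.0227%) were higher and 11 (0.125%) lower in Flvcr-/- cells at an adjusted p of 0.05, and with scaling to a common median these counts were 4 and 11.

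None of the 9 measured positive selection genes passed the test for a difference between Flvcr-/- and Flvcr+/+ thymocytes. With limma, 0 of 9 passed an adjusted p of 0.05, against 0.148% of all genes, and 0 of 9 had an unadjusted p under 0.05, against 4.63% of all genes. The 2 genotypes overlapped for all 9 genes, while 9.59% of all genes had groups that did not overlap. The log2 fold change was above 0 for 3 of them, Cd6, Themis and Bcl6, and below 0 for 6, Cd69, Itm2a, Egr2, Egr3, Nab2 and Socs1 (66.7%, against 48.2% of all genes). Their median was -0.11, beside 0.01 for all genes, and it was 0.05 without Flvcr+/+ replicate 2 and 0.01 without Flvcr-/- replicate 3. In every other alternative setting it stayed below 0, from -0.19 without Flvcr+/+ replicate 1 to -0.05 without background correction. The median size of the difference, regardless of sign, was 0.11 for these genes and 0.12 for all genes. All 9 were detected on all 6 arrays.

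**Figure D1:**
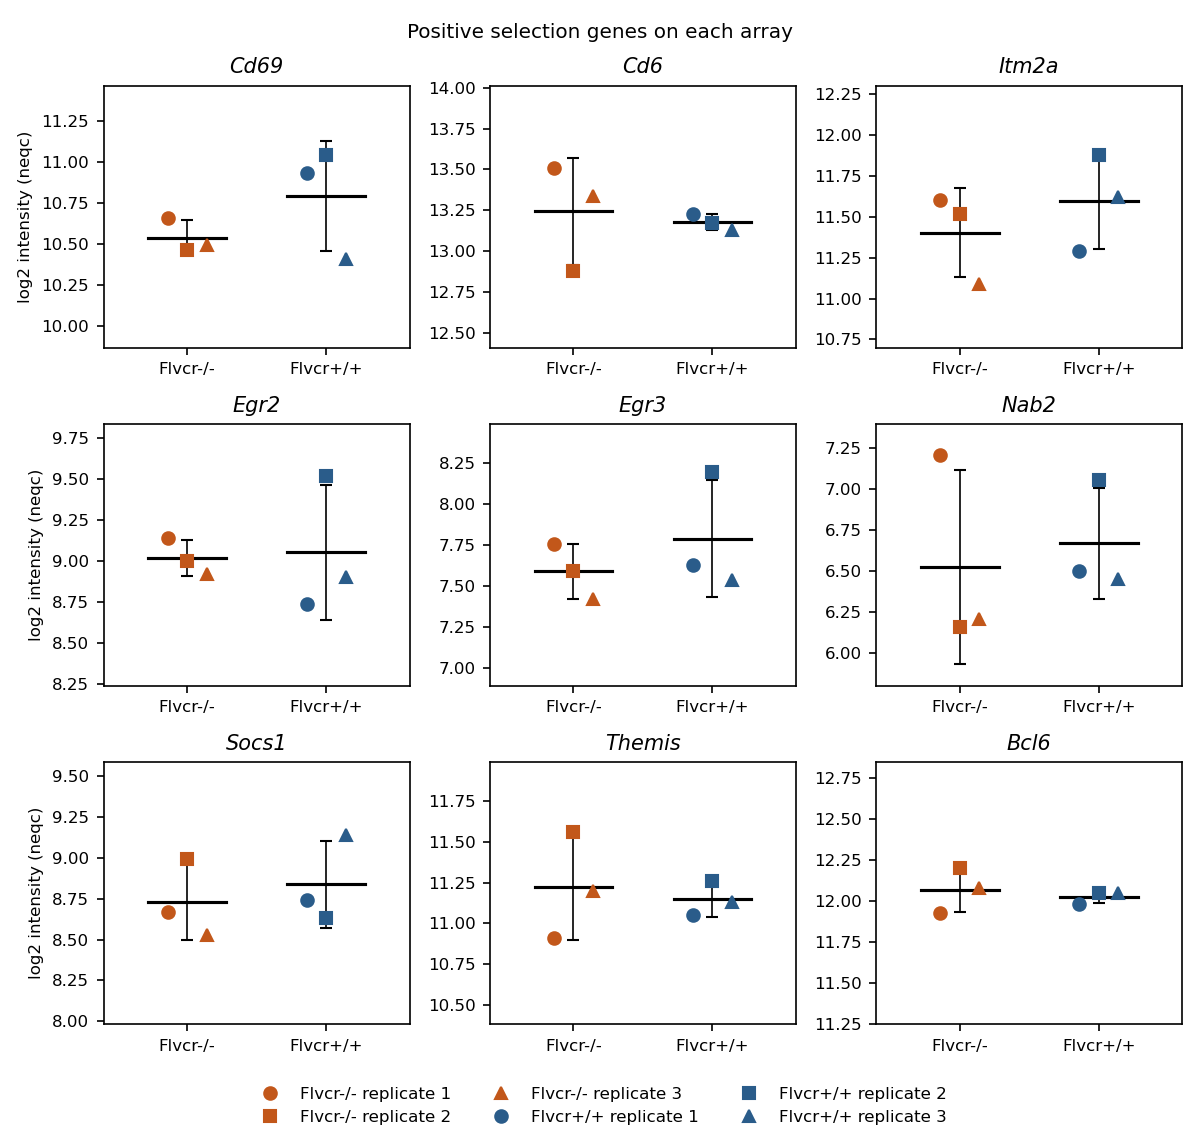
Log2 intensity (y axis, background-corrected and quantile-normalized) of the 9 measured genes on the 3 Flvcr-/- arrays (orange, left) and the 3 Flvcr+/+ arrays (blue, right). Bars are group means with SD, all panels span the same number of log2 units, and in every panel the points of the genotypes overlap.

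Cd69 is a lectin-like surface protein that appears soon after receptor signalling and holds cells in the thymus by drawing the egress receptor S1PR1 off the surface. It read 10.66, 10.46 and 10.49 in Flvcr-/- cells, against 10.93, 11.04 and 10.41 in Flvcr+/+ cells. The 3 Flvcr-/- arrays lay close together and between the Flvcr+/+ values, of which 2 were higher and 1, replicate 3, was the lowest of the 6. The log2 fold change was -0.26 (SE 0.161, 95% interval -0.60 to 0.09, limma adjusted p = 1), or 0.837-fold, and 20.7% of all genes had a larger difference. Among the brightest probes of the 9 genes it had the smallest unadjusted p, 0.133. Without Flvcr+/+ replicate 3 the log2 fold change was -0.44 (unadjusted p = 0.00706, limma adjusted p = 0.455), and without Flvcr+/+ replicate 2 it was -0.14, so the size of the difference depended on which Flvcr+/+ arrays were counted. The other Cd69 probe was near background, detected on 1 of 3 Flvcr-/- and 0 of 3 Flvcr+/+ arrays, and was not tested.

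Itm2a encodes a membrane protein with a BRICHOS domain that thymocytes make more of during positive selection. Its probe read 11.60, 11.52 and 11.09 in Flvcr-/- cells, against 11.29, 11.88 and 11.62 in Flvcr+/+ cells. The lowest array was Flvcr-/- replicate 3 and the highest Flvcr+/+ replicate 2, with the other 4 between them in no order of genotype. For Itm2a the log2 fold change was -0.19 (SE 0.164, 95% interval -0.54 to 0.16). It came to -0.04 without Flvcr-/- replicate 3, -0.05 without Flvcr+/+ replicate 2 and -0.35 without Flvcr+/+ replicate 1. Itm2a lies on the X chromosome, and with the Xist level of each array as a covariate its log2 fold change was -0.18. The other Itm2a probe was detected on 0 of 6 arrays.

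Markers of mature single-positive cells, which follow positive selection and could enter a sort, were measured beside these genes. Of 6 such markers 3 were tested, S1pr1 and Il6ra being detected on too few arrays to enter. The mean of the 3 was 5.82, 5.65 and 5.95 on Flvcr-/- arrays, against 6.58, 6.06 and 6.58 on Flvcr+/+ arrays. All 3 had a log2 fold change below 0, against 48.2% of all genes. Il7r entered the test only through its Flvcr+/+ arrays. Ccr7 was detected on 1 of 3 Flvcr-/- and 3 of 3 Flvcr+/+ arrays. For these genes the detection filter favoured values below 0, so their signs are not read as a result. Ccr7 (-0.76) and Klf2 (-0.67) had an unadjusted limma p under 0.05, against 4.63% of all genes, and Il7r stood at -0.36. With limma 0 of 3 passed an adjusted p of 0.05. By gene, the genotypes overlapped for Klf2 and, by 1 Flvcr-/- array (5.74, beside a lowest Flvcr+/+ value of 5.72), for Ccr7. They did not overlap for Il7r, a state found for 9.59% of all genes. Its probe was detected on 0 of 3 Flvcr-/- and 3 of 3 Flvcr+/+ arrays, so that the mean includes values near background. The filter favours such a gap too, and the gap is not read as a result. The part of such cells in the values of Cd69 and Itm2a was not tested.

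Egr2 and Egr3 are zinc finger transcription factors induced by calcium and ERK signals from the T cell receptor, and mice lacking them make fewer selected thymocytes. A stretch upstream of an Egr2 start site is shown because Egr2 is an immediate early gene for which the RefSeq promoter table (GRCm38.p6) held an entry, with a CArG box, the site bound by serum response factor, in capitals. It is chr10:67537787-67537816, plus strand, at positions -82 to -53 from the start.
Egr2: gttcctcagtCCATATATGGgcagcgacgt
A CArG box, read on both strands, was in 1.63% of all 32851 promoter windows, each running from 250 bases before to 50 after a start, and in 4 of the 13 windows of these genes, all 4 of them Egr2 windows, 3 of which overlap and share the box shown. Promoter windows were found for 7 of the 10 genes.

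Egr2 read 9.14, 9.0 and 8.92 in Flvcr-/- cells, against 8.74, 9.52 and 8.90 in Flvcr+/+ cells. Flvcr+/+ replicate 2 was the highest array and Flvcr+/+ replicate 1 the lowest, so that all Flvcr-/- values fell inside the Flvcr+/+ range. Between the genotypes the log2 fold change was -0.04 (SE 0.198, 95% interval -0.46 to 0.38), and 82.3% of all genes had a larger difference. Its sign turned without Flvcr+/+ replicate 2 (0.20), without Flvcr-/- replicate 3 (0.01) and with array weights (0.06).

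Egr3 read 7.76, 7.59 and 7.42 in Flvcr-/- cells, against 7.63, 8.20 and 7.54 in Flvcr+/+ cells. Again Flvcr+/+ replicate 2 stood above the other 5 arrays, which lay between 7.42 and 7.76. Egr3 had a log2 fold change of -0.20 (SE 0.217, 95% interval -0.66 to 0.27), and it was 0.01 without Flvcr+/+ replicate 2. The raw intensities of this probe were low, 269.2 to 442.0, and without background correction the log2 fold change was -0.13. The other Egr3 probe was detected on 0 of 3 Flvcr-/- and 1 of 3 Flvcr+/+ arrays and was not tested.

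Nab2 is a corepressor that binds EGR proteins and is itself induced by them. It read 7.21, 6.16 and 6.21 in Flvcr-/- cells, against 6.50, 7.06 and 6.45 in Flvcr+/+ cells. In each genotype 1 array stood high, Flvcr-/- replicate 1 and Flvcr+/+ replicate 2, and the range over arrays of 1.05 was the widest of the 9 genes, with 12.8% of all genes wider. Nab2 had a log2 fold change of -0.14 (SE 0.298, 95% interval -0.78 to 0.49). It was -0.49 without Flvcr-/- replicate 1, 0.05 without Flvcr+/+ replicate 2, 0.04 without Flvcr-/- replicate 2 and 0.01 without Flvcr-/- replicate 3, and without background correction of the intensities it was -0.05. The EGR recognition sequence GCGNGGGCG was in 5.55% of all promoter windows on either strand and in 0 of the 13 windows of these genes.

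**Figure D2:**
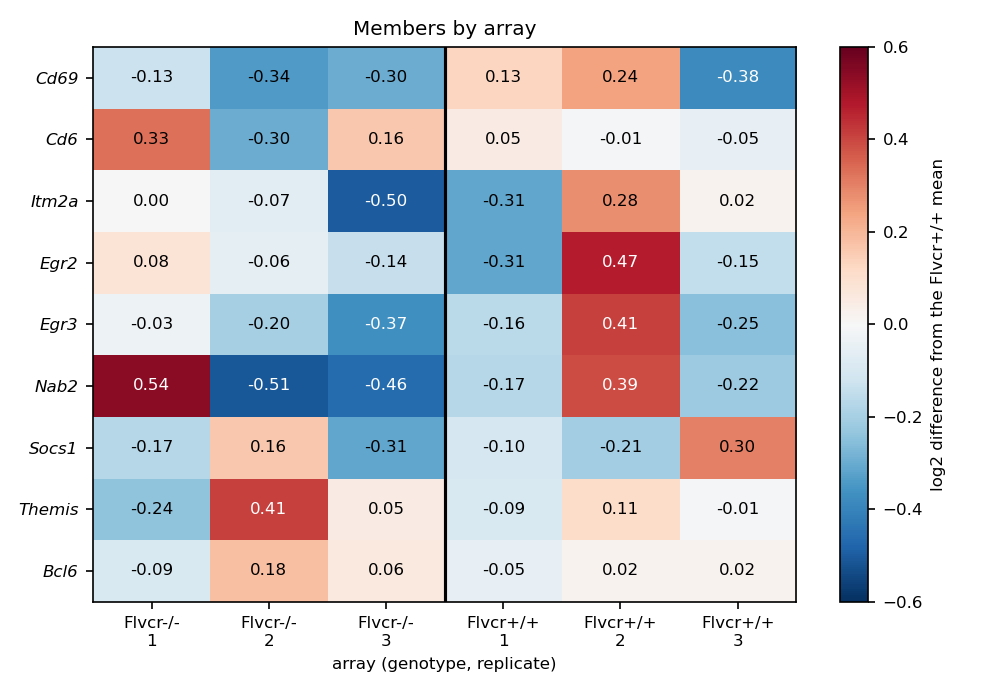
Log2 difference of each gene (rows) on each array (columns, Flvcr-/- left of the line, Flvcr+/+ right) from its Flvcr+/+ mean, printed in each cell. Flvcr+/+ replicate 2 is the highest array for Cd69, Itm2a, Egr2 and Egr3, and Nab2 is high on that array and on Flvcr-/- replicate 1.

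For Cd69, Itm2a, Egr2, Egr3 and Nab2 the SD of the Flvcr+/+ arrays, 0.30 to 0.41, was larger than the difference between the genotypes. The same held for Socs1 (SD 0.27) and Themis (0.10), and not for Cd6 (0.05) or Bcl6 (0.04). Flvcr+/+ replicate 2 was the highest of the 6 arrays for 4 of the 9 genes, Cd69, Itm2a, Egr2 and Egr3, and it was the highest for 19.2% of all genes. Centred on their own means over the 6 arrays, Egr2 and Egr3 differed by a root mean square of 0.12, as did Themis and Bcl6, while Nab2 differed from Themis by 0.54. Egr2 and Egr3 are also immediate early genes that respond to cell handling. Of 14 handling response genes 11 were tested, with Atf3, Hspa1a and Hspa1b detected on too few arrays to enter. The mean of the 11 was 9.11, 8.73 and 8.50 on Flvcr-/- arrays, against 9.71, 9.06 and 8.73 on Flvcr+/+ arrays. That mean was highest on Flvcr+/+ replicate 1, where Egr2 was lowest. Egr1, which belongs to that list, read 12.34 ± 0.03 in Flvcr-/- and 12.33 ± 0.17 in Flvcr+/+ cells (SD, n = 3 each), and like Egr2 and Egr3 it was highest on Flvcr+/+ replicate 2 (12.52). The part of handling in the values of Egr2 and Egr3 was not tested.

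Cd6 encodes a scavenger receptor family protein of the T cell surface that is related to CD5 and binds ALCAM. It had 4 probes, all detected on all arrays, and the brightest read 13.51, 12.88 and 13.34 in Flvcr-/- cells, against 13.23, 13.17 and 13.13 in Flvcr+/+ cells. Flvcr-/- replicates 1 and 3 lay above every Flvcr+/+ array and Flvcr-/- replicate 2 below them. The log2 fold change was 0.07 (SE 0.134, 95% interval -0.22 to 0.35). The Flvcr-/- arrays spread more, with an SD of 0.33 against 0.05 in Flvcr+/+ cells (n = 3 each), a difference in spread that was not tested.

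The other Cd6 probes gave log2 fold changes of 0.12, 0.40 and 0.15, and none passed (limma adjusted p = 1 for each). On all 4 probes, Flvcr-/- replicates 1 and 3 were above all Flvcr+/+ arrays, by 0.16 to 0.66 over the Flvcr+/+ mean, and Flvcr-/- replicate 2 was below that mean, at -0.30 to -0.03. The value of 0.40 (limma unadjusted p = 0.0923) came from the dimmest of the 4 probes, with raw intensities of 278.8 to 428.4. This probe averaged 7.92 ± 0.38 in Flvcr-/- and 7.53 ± 0.19 in Flvcr+/+ cells (SD, n = 3 each). The mean of the 4 probes gave 0.18. Without Flvcr-/- replicate 2 the brightest probe gave 0.24 (unadjusted p = 0.0325, limma adjusted p = 0.999), and without Flvcr-/- replicate 1 it gave -0.07.

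**Figure D3:**
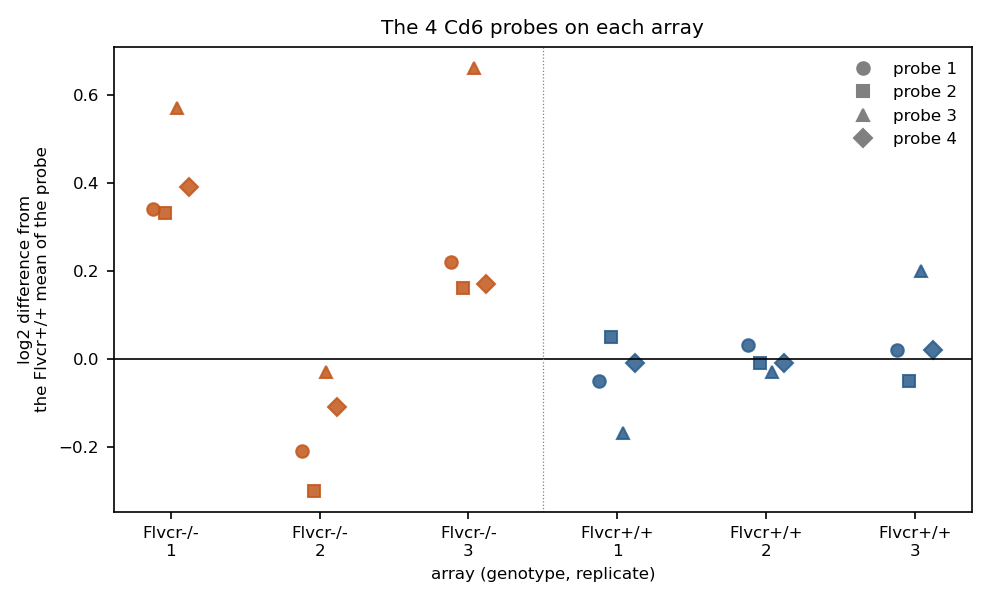
Log2 difference of the 4 Cd6 probes (marker shapes) from each probe's Flvcr+/+ mean, by array, with Flvcr-/- in orange on the left and Flvcr+/+ in blue on the right. Flvcr-/- replicates 1 and 3 lie between 0.16 and 0.66 and replicate 2 between -0.30 and -0.03.

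Themis encodes a thymocyte protein that binds Grb2 and the phosphatase SHP-1 and is needed for positive selection. It read 10.91, 11.56 and 11.20 in Flvcr-/- cells, against 11.05, 11.26 and 11.13 in Flvcr+/+ cells. The highest and the lowest array were both Flvcr-/-, with the Flvcr+/+ arrays between them. Its log2 fold change was 0.07 (SE 0.153, 95% interval -0.25 to 0.40), with 0.23 without Flvcr-/- replicate 1 and -0.09 without Flvcr-/- replicate 2.

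Socs1 is an inhibitor of JAK kinases that keeps double-positive thymocytes unresponsive to cytokines. It read 8.67, 8.99 and 8.53 in Flvcr-/- cells, against 8.74, 8.63 and 9.14 in Flvcr+/+ cells. The values of the genotypes were interleaved, with Flvcr+/+ replicate 3 the highest and Flvcr-/- replicate 3 the lowest. Socs1 had a log2 fold change of -0.11 (SE 0.190, 95% interval -0.51 to 0.30). It was 0.04 without Flvcr+/+ replicate 3, -0.01 without Flvcr-/- replicate 3 and -0.24 without Flvcr-/- replicate 2.

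Bcl6 is a transcriptional repressor present in double-positive thymocytes and known for its role in germinal centre B cells and follicular helper T cells. Part of 1 of its 2 promoter windows is shown because Bcl6 was the only 1 of these genes whose windows held TTCNNNGAA, the sequence that STAT factors of cytokine signalling recognise. Its matches are in capitals in the stretch chr16:23981357-23981457 (GRCm38.p6, RefSeq), minus strand, at positions -174 to -74 from the start.
Bcl6: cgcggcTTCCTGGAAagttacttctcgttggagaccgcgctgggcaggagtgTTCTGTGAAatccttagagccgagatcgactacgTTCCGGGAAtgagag
The sequence was in 8.30% of all promoter windows on either strand and in 2 of the 13 windows of these genes, both of Bcl6. A match is a run of letters and no shown binding site.

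Bcl6 was the steadiest of the genes. It read 11.93, 12.20 and 12.08 in Flvcr-/- cells, against 11.98, 12.05 and 12.05 in Flvcr+/+ cells. The range over the 6 arrays was 0.27, and 91.9% of all genes ranged more widely. The log2 fold change was 0.05 (SE 0.112, 95% interval -0.19 to 0.29), and it was 0.12 without Flvcr-/- replicate 1 and -0.02 without Flvcr-/- replicate 2. B cells can make Bcl6 and Cd69 as well. Of 7 B cell markers with a probe only Cd79b was tested, at 10.41 ± 0.23 in Flvcr-/- and 10.15 ± 0.29 in Flvcr+/+ cells, and Igkc, the kappa light chain constant region, was lower in Flvcr-/- cells (8.44 ± 0.37, against 11.80 ± 0.35 in Flvcr+/+ cells, SD, n = 3 each, limma adjusted p = 5.09e-07). Ighm, the other immunoglobulin gene tested, read 13.16 ± 0.10 in Flvcr-/- and 13.21 ± 0.05 in Flvcr+/+ cells (SD, n = 3 each) and did not pass (log2 fold change -0.05). Ms4a1, Pax5, Cd22, Fcer2a, Fcmr and Blnk were detected on too few arrays to enter. Of 9 dendritic cell markers 6 were tested, all 6 with a log2 fold change below 0, against 48.2% of all genes. Their mean was 7.64, 8.11 and 7.71 on Flvcr-/- arrays, against 8.35, 8.05 and 8.22 on Flvcr+/+ arrays. Cd74 (-1.13) and H2-Eb1 (-0.66) had an unadjusted limma p under 0.05, against 4.63% of all genes. H2-Ab1 stood at -0.10 and Cst3 at -0.07, and 0 of 6 passed an adjusted p of 0.05. Of 6 NK and gamma-delta T cell markers 2 were tested, Nkg7 at -1.06 and Prf1 at -0.08, and 0 passed. The Nkg7 probe was detected on 0 of 3 Flvcr-/- and 3 of 3 Flvcr+/+ arrays, so it entered the test only through the group where it was high. The part of B cells, dendritic cells and NK cells in the values of Bcl6 and Cd69 was not tested.

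**Figure D4:**
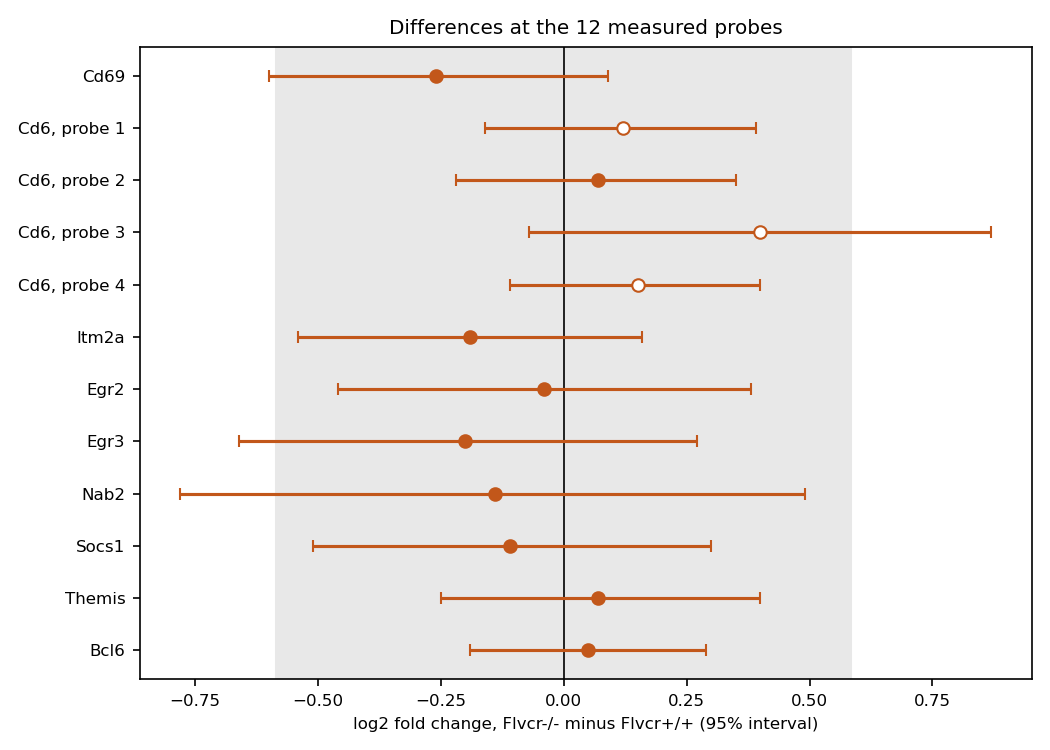
Log2 fold change (x axis, Flvcr-/- minus Flvcr+/+) with its 95% interval for the 12 measured probes, filled for the probe that stands for its gene and open for the other Cd6 probes. The grey band spans 1.5-fold in either direction, every interval includes 0, those of Cd69, Egr3 and Nab2 reach below the band, and that of Cd6 probe 3 (-0.07 to 0.87) reaches above it.

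The intervals state which differences remained possible at 3 arrays a group. All 9 included 0, and all 9 lay within 2-fold in either direction. For 6 genes, Cd6, Itm2a, Egr2, Socs1, Themis and Bcl6, the interval of the brightest probe lay within 1.5-fold in either direction, the narrowest being that of Bcl6 at 0.877-fold to 1.22-fold. The Cd6 probe with the low intensities had a wider interval of 0.95-fold to 1.83-fold. For Cd69 the interval ran from 0.659-fold to 1.06-fold, for Egr3 from 0.632-fold to 1.20-fold and for Nab2 from 0.582-fold to 1.41-fold, so that a level lower by more than 1.5-fold was within their error. These intervals hold on the background-corrected scale with its offset.

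**Figure D5:**
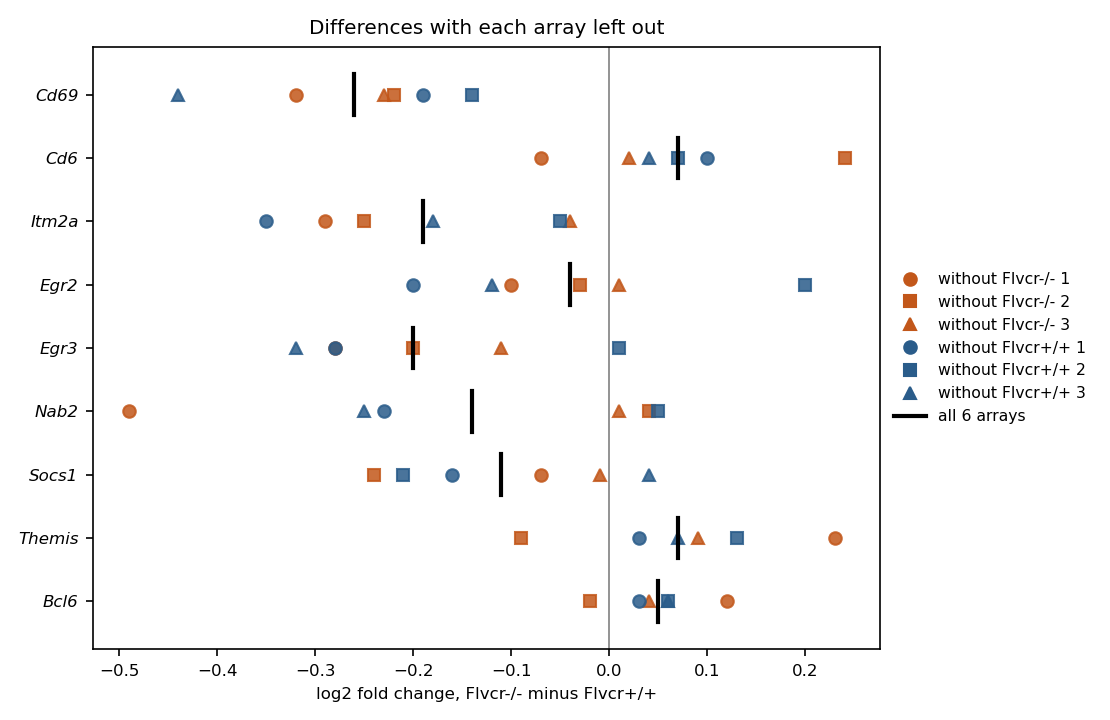
Log2 fold change (x axis, Flvcr-/- minus Flvcr+/+) of the 9 genes with all 6 arrays (black bar) and with each array left out (orange, a Flvcr-/- array; blue, a Flvcr+/+ array). The values of Cd69 and Itm2a stay below 0, and those of the other 7 genes lie on both sides of 0.

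Genes that share the pathway were described from lists chosen by function. Among 24 genes induced early by T cell receptor signals, 17 were tested, 5 above 0 and 12 below (48.2% of all genes were below 0), with a median log2 fold change of -0.18 beside 0.01 for all genes. With limma 0 of 17 passed an adjusted p of 0.05, beside 0.148% of all genes, and 1 of 17 had an unadjusted p under 0.05, close to the 4.63% of all genes. Fos, part of the AP-1 factor, read 9.26, 8.84 and 7.64 in Flvcr-/- cells, against 10.77, 9.67 and 8.66 in Flvcr+/+ cells (log2 fold change -1.12, SE 0.433, limma adjusted p = 1), and Nfkbid, an atypical IkB protein, had a log2 fold change of -0.33 (SE 0.156). Fos passed an adjusted p of 0.05, lower in Flvcr-/- cells, with array weights and with the replicate number as a block, the only 1 of the 52 related genes tested to pass in either. It varied by more than 2 log2 units within the Flvcr+/+ arrays alone. Fos, Jun, Junb, Fosb, Ier2 and Egr1 are handling response genes too, and the means of that list are given above. In that order these shared genes had log2 fold changes of -1.12, -0.81, -0.55, -0.46, -0.21 and 0.01. They enter the counts and the median of both lists, which are therefore not independent. The Fosb probe was detected on 0 of 3 Flvcr-/- and 3 of 3 Flvcr+/+ arrays, so it entered only through the group where it was high. Like Fos, which is 1 of the genes averaged, the mean of the handling list was highest on replicate 1 and lowest on replicate 3 in both genotypes. Jun was lowest on replicate 2 in both, at 6.70 in Flvcr-/- and 7.34 in Flvcr+/+ cells. The cause of these orders was not tested. The receptors Nr4a1 and Nr4a3 and the EGR family gene Egr4 were among those detected on too few arrays to enter.

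Of 21 genes of lineage choice and later maturation 16 were tested, 6 above 0 and 10 below, with a median of -0.04. With limma 0 of 16 passed an adjusted p of 0.05, beside 0.148% of all genes, and 2 of 16 had an unadjusted p under 0.05, beside 4.63% of all genes. They were the chemokine receptor gene Ccr7 (-0.76, SE 0.289) and Klf2, a factor that drives egress (-0.67, SE 0.300). The Ccr7 probe was detected on 1 of 3 Flvcr-/- and 3 of 3 Flvcr+/+ arrays. Ccr7, Klf2 and Il7r of this list are the single-positive markers given above, by the same probes, so the 2 lists repeat 1 observation. Of 11 genes that positive selection lowers, such as Rag1 and Rag2 of receptor gene recombination, 9 were tested, 4 above 0 and 5 below, with a median of -0.05, and 0 had an adjusted or an unadjusted p under 0.05. In this list Plxnd1, a semaphorin receptor, had a log2 fold change of -0.20 (SE 0.139) and Rag1 of -0.13 (SE 0.106). Of 21 paralogs and partners of the 10 genes, 10 were tested, 5 on each side of 0, with a median of 0.00, and 0 had an adjusted or an unadjusted p under 0.05. Socs6, a relative of Socs1, stood at 0.22 (SE 0.208) and Clec2d, a lectin gene, at 0.25 (SE 0.196).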

How the data were processed

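The deposited table of non-normalized values holds probe intensities on a linear scale, unscaled between arrays, and a detection p-value per probe and array, per the file headers. The deposited log2 values differed from the log2 of quantile-normalized intensities by at most 5.00e-09, so they carry no background correction or centring. The submitters' processing notes name lumi. Build and slide are not given in the sources used here.

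Groups came from the sample titles. Intensities were processed with neqc (offset 16) of limma 3.58.1 in R 4.3.3, keeping probes with detection p under 0.05 on at least 3 arrays. A gene is its brightest kept probe. The genotypes were compared by a linear model (lmFit, then eBayes using a trended variance) in a 2-sided test, with Benjamini-Hochberg adjustment over 15448 probes. Symbols were updated through RefSeq (GRCm38.p6), 28620 of 35784 by gene identifier.

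The genes and lists were chosen with earlier results of these data known. Named are all 10 genes with every probe, Flvcr1, the 2 smallest p of each related list and abundant markers. Jun, Junb, Fosb, Ier2, Il7r, Rag2, Nr4a1, Nr4a3, Egr4, Xist, Cd74, H2-Eb1, H2-Ab1 and the markers detected on too few arrays were named after their values were seen. Alternatives changed the background, normalization, filter, variance model, weights, replicate block, probe rule, Xist covariate or left out 1 array.

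In a simulation of 15310 tested probes, 32.8% of probes changed 1.5-fold, 67.2% of those changed 2-fold and 100% of those changed 4-fold were called, with 7 false calls. The changed probes were drawn from brighter ones, so these rates do not describe dim probes. The simulation held 67, 67 and 66 changed probes at these folds, while 13 genes passed in the data. The Benjamini-Hochberg cut is looser with more true changes, so these rates may exceed those of the real test. The number of arrays limits the precision.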

Additional observations from a re-analysis of the deposited data

How the results depend on the processing

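Over 16 alternatives, 0 of the 9 genes passed an adjusted p of 0.05 in any, with a lowest limma adjusted p of 0.357 (Cd69, array weights). Of 144 values 133 kept their sign and 11 turned, 10 of them when 1 array was left out and 1 with array weights (Egr2, 0.06). With 1 array left out the log2 fold change ran from -0.44 to -0.14 for Cd69, -0.07 to 0.24 for Cd6, -0.35 to -0.04 for Itm2a, -0.20 to 0.20 for Egr2, -0.32 to 0.01 for Egr3, -0.49 to 0.05 for Nab2, -0.24 to 0.04 for Socs1, -0.09 to 0.23 for Themis and -0.02 to 0.12 for Bcl6. An unadjusted p under 0.05 occurred in 3 of the 144 values. The count over all genes, 13 with the main settings, was 1 without the variance trend, 30 with array weights and 2 to 12 with 1 array left out. It was 2 without Flvcr+/+ replicate 2 or Flvcr-/- replicate 2, 3 without Flvcr-/- replicate 3 and 4 without Flvcr+/+ replicate 1. Of the related lists, 0 genes passed except 1, Fos, with array weights (1) and with a replicate block (1). The causes of these changes were not tested. Arrays with the same replicate number had correlations of deviations from the group means of -0.15, 0.09 and 0.11. Arrays with different numbers had correlations from -0.19 to 0.08, below 0.09 and 0.11. The values for the same number were not all above 0.1, and the labels give the number no shared litter, day or batch. The pairing was therefore not used in the main test, and whether such a factor is shared was not tested. With the replicate block the count over all genes was 12 and that over the members 0. The slide as a block was not run, because the headers give none. Low signal over background limits Nab2, Egr3, the dimmest Cd6 probe and the 3 untested probes.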

Other observations

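The genes whose pattern over the 6 arrays was most like that of Nab2, Itm2a and Egr2, the 3 members with the widest range (Egr3 tied with Egr2 at 0.78 to 2 decimals), were found by the root mean square difference of log2 values centred on their mean over the 6 arrays. For Nab2 (range 1.05) they were Prrc2c (0.09), Dus2 (0.13) and Mga (0.15). Prrc2c shared the 2 high arrays of Nab2, with 8.03, 6.84 and 7.11 in Flvcr-/- cells and 7.38, 7.89 and 7.12 in Flvcr+/+ cells. For Itm2a (range 0.79) they were Rgl2 (0.07), Prmt2 (0.09) and Il1f10 (0.09). For Egr2 (range 0.78) they were Tmem176a (0.07), Gpr137b (0.08) and Zfp397 (0.08), so that genes of the whole table lay closer to Egr2 than Egr3 did (0.12). Il1f10 (5.14 to 5.70), Tmem176a (5.49 to 6.48) and Gpr137b (5.59 to 6.26) were dim, so their patterns may include background. With 6 arrays and 8808 genes, close matches of this kind are many, and no test was made of them.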
